A study of Mus musculus with 24 samples.

Results

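Complement and blood clotting proteins circulate in plasma and are made largely by the liver. The genes described here are 38 of them, chosen by name: 18 of complement, 17 of clotting and 3 of fibrinolysis, the process that dissolves clots. They were measured among 19287 genes on 24 single-colour microarrays of mouse liver RNA, in 6 groups of 4 arrays. The groups were treated dKO males, treated wild-type males, treated dKO females, treated wild-type females, untreated dKO females and untreated wild-type females. In the labels dKO stands for the genotype, which the study's title ties to Foxa1 and Foxa2, genes of the forkhead factors that open chromatin at liver genes. The labels and protocols name neither the deleted part of each gene, the Cre or promoter used, the strain nor the age at collection. Treated mice received the carcinogen DEN at 20 mg/kg on day 14 to 15 of life, then 8 injections of TCPOBOP, an agonist of the nuclear receptor CAR that promotes liver tumours, at 3 mg/kg every 2 weeks. Untreated males were not analysed here, so treatment was compared in females only. By the labels every sample is liver tumour, untreated or not, and the extraction protocol mentions both liver samples and sorted cells.

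The complement cascade is started by antibody (classical pathway), by sugar-binding lectins (lectin pathway) or by spontaneous C3 activation (alternative pathway). All routes cleave C3 and then C5, and the late components C5b to C9 form the pore of the membrane attack complex. Clotting, which can start at the contact factors or elsewhere, runs through a chain of vitamin K-dependent proteases to thrombin. Thrombin turns fibrinogen into fibrin. Antithrombin, heparin cofactor II and protein C brake that chain, and plasmin dissolves the clot. Hepatocytes are the main source of most of these proteins, and terminal complement activity in mouse serum is known to be higher in males than in females.

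Each level below is the log2 of a probe's signal over the 75th percentile of its array, so a level of 0 equals that percentile and a step of 1 is a doubling. Levels are compared between samples for 1 probe and not between genes. Each difference is a log2 fold change with its standard error from a limma model over all 24 arrays, and a gene was called changed when its p, adjusted over all 19287 genes by Benjamini-Hochberg, was under 0.05. All 38 members were well above background on all 24 arrays, so the filter on dim probes removed none of them.

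The genotype labels were checked first. Foxa1 was not well above background on any dKO array, so its fold is a bound, set by the lowest signal that was well above background. Its level was at least 5.99-fold lower in treated dKO males, at least 7.51-fold lower in treated dKO females and at least 6.68-fold lower in untreated dKO females than in the matching wild type. Foxa2 lay between -7.32 and -1.93 on the dKO arrays, against 3.55 to 4.92 on the wild-type arrays.

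Some arrays stood apart. In every group the array numbered 4 lay inside the range of the other 3 for 71.6% to 85.4% of 13535 genes, against 22.4% to 62.8% for any of the arrays numbered 1 to 3. For the 38 members these counts were 29 to 38 and 2 to 27. The SD of its difference from the log2 mean intensity of the other 3 was 0.147 to 0.206, against 0.252 to 0.768 for the others. The labels do not say that the RNA of these arrays was a mixture of the other samples, and whether it was a mixture was not tested. The fit counts them as separate samples, so calls are also given without the 6 arrays numbered 4. Treated dKO female 2 was low across the members, by 1.43 on average on the log2 scale relative to each gene's mean over all arrays (-1.43), where the other arrays lay between -0.60 and 0.32. Its 8 hepatocyte markers were lower still (-2.72, against -0.76 to 0.47 on the others). The slope of the spike-in controls on that array was the lowest of all (0.923), and its 75th percentile signal the highest (960). The slope was 0.953, 0.985 and 0.946 on treated dKO females 1, 3 and 4, and 0.955 to 1.03 outside that group. Whether such technical differences bear on the members' levels was not tested. Nothing in the labels says that the 4 samples of a group came from separate animals. A p measures the spread between samples within a group, pooled over all 6 groups. It is not the spread of the groups compared alone.

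**Figure D1:**
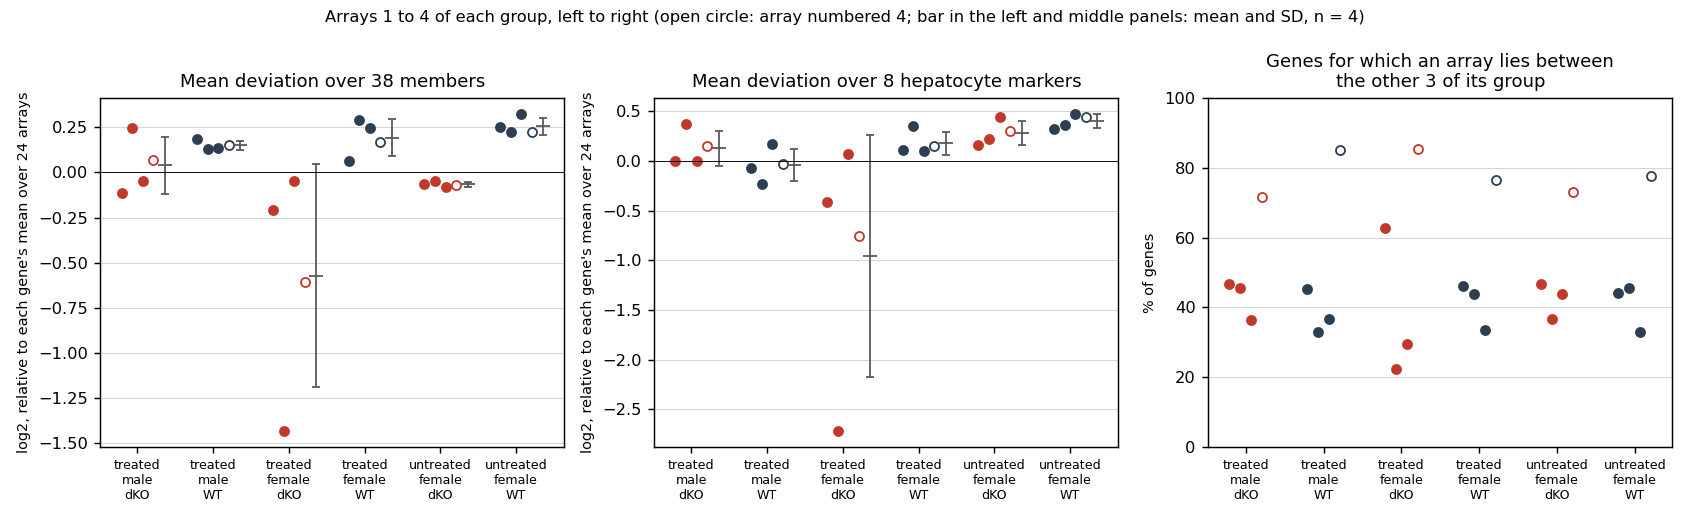
Mean deviation of the 38 members and of the 8 hepatocyte markers on each array, in log2 units relative to each gene's mean over 24 arrays, and the percent of genes for which an array lies between the other 3 of its group. Open circles are the arrays numbered 4, which lie highest in the percent panel, and bars are the mean and SD (n = 4). Treated dKO female 2 is the lowest array in both, at -1.43 for the members and -2.72 for the hepatocyte markers.

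The members did not move as 1 block. In treated females, 22 of 38 were lower in dKO than in wild-type livers and none was higher, with a median log2 fold change of -0.65, against -0.07 for all genes tested. Over all genes 29.7% were called in that comparison, 16.3% as lower and 13.5% as higher. Leaving out treated dKO female 2 gave 18 lower and 1 higher (C4b), with a median of -0.37. Without the 6 arrays numbered 4 it was 7 lower and 0 higher. Fitted on the groups compared alone, 17 of the 22 calls were lost. Scaled to the secreted hepatocyte genes, a choice made after seeing the data, 6 members were higher and 7 lower. The members' median was then -0.02, where that of all genes was 0.57. Those reference genes had mean deviations of -0.16, -1.29, 0.15 and -0.42 in treated dKO females themselves. In treated wild-type females they were 0.02, 0.32, 0.09 and 0.08. Since this scale itself differed between the groups, it cannot decide the members' direction. Quantile normalization lost 6 of the 22 calls, another background correction (normexp) lost 5 and median centring lost 0. None of these settings turned the sign of a call. In treated males 4 members were higher and 6 lower in dKO livers, with a median of 0.08. The background was 25.3% of genes called, 14.5% as higher and 10.8% as lower, so the members' share called in males was close to that of all genes. Without the arrays numbered 4, 1 member was higher and 4 were lower there. In untreated females 4 members were lower and 0 higher in dKO livers (median -0.16), where 9.76% of genes were called, 5.16% as higher and 4.59% as lower. F11 alone was called without the arrays numbered 4. Position on the slide was aligned with group. Treated dKO females were all at position 4, treated wild-type females at 1 or 2 and untreated dKO females at 2 or 3. Treated dKO males were at 3 or 4 and treated wild-type males all at 1. Genotype in treated mice and treatment in dKO females thus cannot be told apart from position, within slides included. With position as a covariate, which takes its effect as a straight line, Mbl2 and F11 were the 2 members called in treated females. Mbl2 was the 1 called in treated males.

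The 8 hepatocyte markers moved with the members in treated females, which bears on how the member counts are read. In treated dKO females 5 of 8 were lower and none higher than in wild type (median -1.25), and the summed signal of the 8 was 577 to 1374 times the array's 75th percentile, against 1356 to 1834 times in treated wild-type females. None of the 8 was at 0. Leaving out treated dKO female 2, 4 of 8 were lower (median -0.56). In treated males none of the 8 was called, with sums of 1291 to 1637 in dKO and 1357 to 1490 in wild-type livers. Bile duct markers were higher in dKO livers of every group: 8 of 8 in treated males (median 3.32), 7 of 8 in treated females (median 2.74) and 6 of 8 in untreated females (median 2.08). Of 9 stellate cell and fibroblast markers, 4, 7 and 3 were higher in dKO livers of those groups and none was lower. In bulk RNA, fewer hepatocytes and less RNA per hepatocyte cannot be told apart, and the part of cell composition in the members' changes was not tested.

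**Figure D2:**
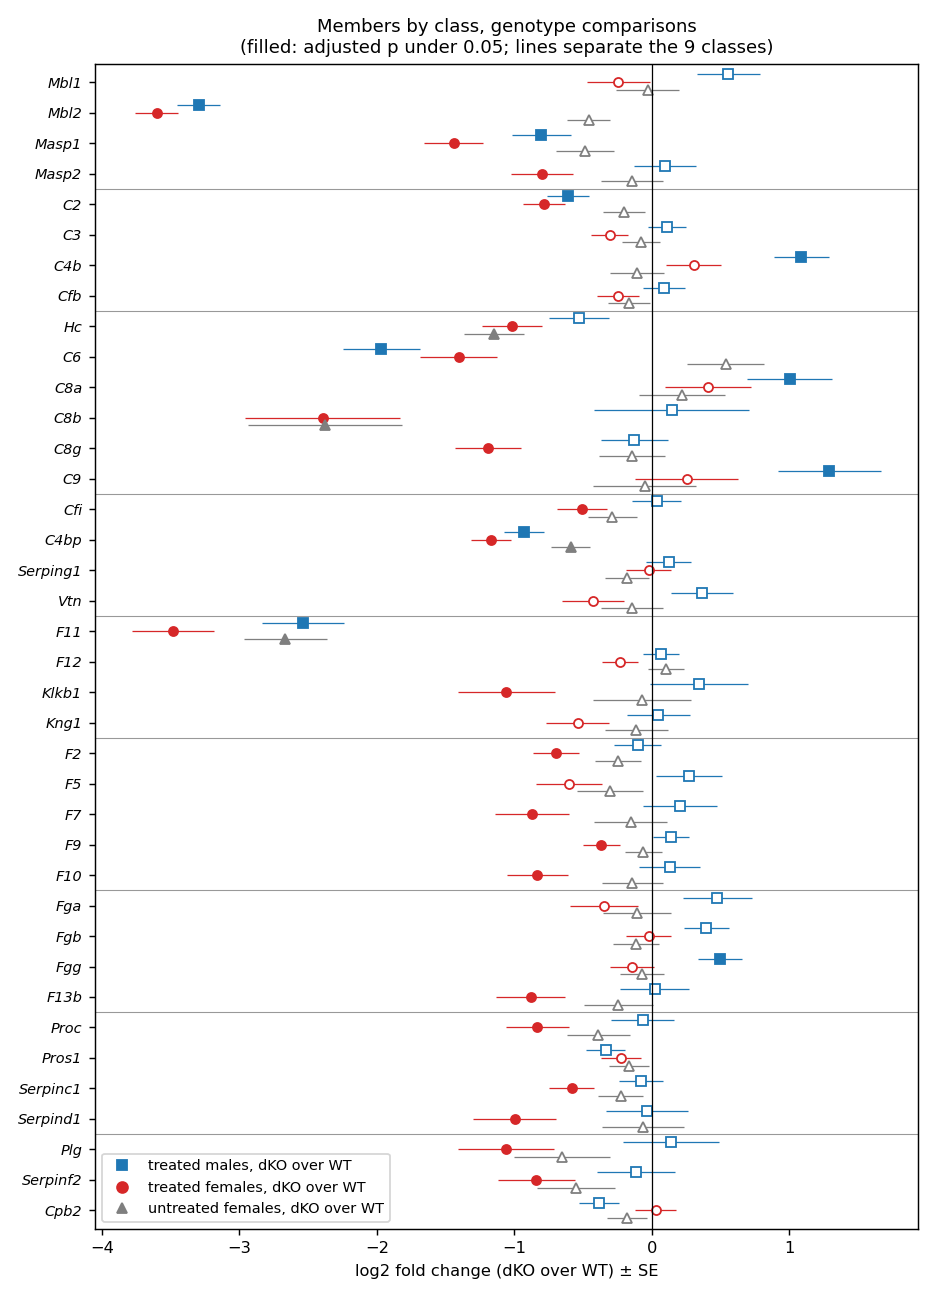
Log2 fold change (dKO over wild type) of each of the 38 members with its standard error, in treated males, treated females and untreated females (n = 4 per group), ordered by role. Filled marks have an adjusted p under 0.05: 10, 22 and 4 members.

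Among the lectin pathway genes, Mbl2 stood out. It encodes mannose-binding lectin C, a plasma lectin that binds sugars on microbes. Mbl2 was 12.2-fold lower in treated dKO females and 9.82-fold lower in treated dKO males than in wild type, but in untreated mice the difference did not pass the test. Mbl2 read 4.68, 5.0, 5.63 and 4.96 in treated dKO females, against 8.55, 8.97, 8.59 and 8.58 in treated wild-type females. It read 5.32, 4.87, 5.19 and 5.33 in treated dKO males, against 8.56, 8.28, 8.51 and 8.55 in treated wild-type males. The treated dKO arrays thus lay together, far below every other array, and no group overlapped its wild type. In untreated females Mbl2 read 8.17, 8.33, 8.25 and 8.30 in dKO and 8.59, 8.63, 8.88 and 8.80 in wild type. Those groups did not overlap either, but the difference was small.

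The log2 fold change of Mbl2 was -3.60 ± 0.16 in treated females (SE, adjusted p = 1.4e-11), -3.30 ± 0.16 in treated males (adjusted p = 3.8e-11) and -0.46 ± 0.16 in untreated females (adjusted p = 0.069). Mbl2 was lower in treated than in untreated dKO females (-3.20 ± 0.16, adjusted p = 6.9e-11). In wild-type females treated and untreated arrays differed by -0.05 (adjusted p = 0.86). The genotype by treatment interaction, which tests that contrast itself, was -3.15 ± 0.22 (adjusted p = 6.1e-08). Males and females did not differ in the effect of genotype beyond the spread (sex by genotype interaction 0.31 ± 0.22, adjusted p = 0.38). Without the arrays numbered 4 the 3 called differences and the interaction were all called again (adjusted p at most 0.00046). The change in treated females was -3.58 without treated dKO female 2. On the slides that held both groups it was -3.59 to -3.58 in females and -3.41 to -3.19 in males. All these comparisons share groups, so they are not independent of one another.

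Of the other lectin pathway members, Mbl1, the gene of the second mouse mannose-binding lectin, did not follow Mbl2: its genotype differences were 0.56 in treated males, -0.24 in treated females and -0.03 in untreated females, none called. Masp1 and Masp2 encode the serine proteases that the lectins activate. Masp1 fell in treated dKO females (-1.44 ± 0.21, adjusted p = 6.8e-05) and in treated dKO males (-0.80 ± 0.21, adjusted p = 0.0086), with adjusted p = 0.010 and 0.082 without the arrays numbered 4. Masp1 produces several proteins by alternative splicing, and its probes differed. A second probe, mapped to a different transcript, was higher in treated dKO males (0.55, adjusted p over probes = 0.0089), and read 0.27 in treated females and 0.29 in untreated females, neither called. Another Masp1 probe went with the brightest: -0.66 in treated males, -1.21 in treated females and -0.50 in untreated females (adjusted p over probes = 0.0032, 1.5e-05 and 0.044). Masp2 fell in treated dKO females (-0.80 ± 0.23, adjusted p = 0.012), a call lost without the arrays numbered 4. Of the other Masp2 probes, 1 differed by -1.28 between treated and untreated wild-type females (adjusted p over probes = 0.011), where the brightest read 0.00 and another 0.01. For the sex by genotype interaction that probe read -0.15, against 0.90 for the brightest and 0.95 for the third (adjusted p over probes = 0.87, 0.072 and 0.044).

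The 250 bases before the start of Mbl2 are shown because it had the largest genotype differences among the members in both treated sexes. The promoters here are RefSeq's for build GRCm38.p6, which covers 29 of the 38 members with 30 promoters. They were searched on both strands for 3 forkhead words, TGTTTAC or TATTTAC or TGTTTGC. At least 1 of the words stood in 16.7% of the member promoters, 5 of 29 genes (F11, C8b, Klkb1, Fgb and Serpinf2), against 9.73% of 32851 promoters. The Mbl2 window held none of these exact words. Near variants of them were not searched, so this says nothing of forkhead binding in the window or elsewhere.
Mbl2, chr19:30232678-30232927, plus strand: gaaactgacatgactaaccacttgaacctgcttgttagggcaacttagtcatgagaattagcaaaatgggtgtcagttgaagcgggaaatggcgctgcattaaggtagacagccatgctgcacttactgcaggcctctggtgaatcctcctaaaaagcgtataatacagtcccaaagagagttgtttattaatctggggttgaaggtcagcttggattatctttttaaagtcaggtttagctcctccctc

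In the classical pathway and at C3 the changes were smaller. C2, whose product is the protease of the classical C3 convertase, was lower in dKO livers of both treated sexes. Its log2 fold change was -0.79 ± 0.15 in females (adjusted p = 0.00084) and -0.61 ± 0.15 in males (adjusted p = 0.0057), with adjusted p = 0.041 and 0.071 without the arrays numbered 4. C2 was higher in treated than in untreated wild-type females (0.51 ± 0.15, adjusted p = 0.027, and 0.20 without those arrays). C4b read 6.52, 7.11, 6.74 and 6.91 in treated dKO males, against 5.52, 5.87, 5.82 and 5.71 in treated wild-type males. All 4 dKO males lay above all 4 wild-type males, by 1.09 ± 0.20 (adjusted p = 0.00039, and 0.024 without the arrays numbered 4). In treated females C4b read 6.84, 5.81, 6.85 and 6.33 in dKO and 5.77, 6.41, 6.38 and 6.05 in wild type, and these groups overlapped (0.31, not called). Mouse has a near-identical copy of C4b, and its transcript could reach the same probe. C3, the hub of the cascade, and Cfb, the protease of the alternative pathway, were called in none of the 9 comparisons. C3 averaged 9.68 ± 0.20 in treated dKO males, 9.57 ± 0.09 in treated wild-type males, 9.30 ± 0.25 in treated dKO females and 9.61 ± 0.15 in treated wild-type females (SD, n = 4 each). Between treated dKO males and females the brightest C3 probe read 0.38 and a dimmer one -0.50 (adjusted p over probes = 0.054 and 0.049).

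The late components, whose products assemble the membrane attack complex, did not move in 1 direction. C6, the gene of the component that binds C5b, was higher in males in both genotypes. C6 read 1.45, 1.79, 0.80 and 1.49 in treated dKO males, against -0.16, -0.86, -1.55 and -0.85 in treated dKO females. In treated wild-type males it read 3.64, 3.59, 2.79 and 3.38, against 0.24, 0.35, 1.19 and 0.43 in treated wild-type females. Males lay above females in both genotypes without overlap, and dKO lay below wild type in both sexes without overlap.

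C6 was 4.71-fold higher in males than in females among treated dKO mice (log2 2.23 ± 0.28, adjusted p = 3.5e-05) and 6.96-fold higher among treated wild types (log2 2.80 ± 0.28, adjusted p = 4.7e-06). The C6 genotype difference was -1.97 ± 0.28 in treated males (adjusted p = 3.2e-05) and -1.40 ± 0.28 in treated females (adjusted p = 0.0010). Without the arrays numbered 4 all 4 differences were called (adjusted p = 0.0052 to 0.034). The sex by genotype interaction of C6 was -0.56 ± 0.39 (adjusted p = 0.36), so a change of the sex difference with genotype was not shown. In untreated females C6 was not called (0.54 ± 0.28, adjusted p = 0.24), with -0.07, -0.53, -0.29 and -0.33 in dKO and -1.26, -0.37, -0.82 and -0.93 in wild type. Between treated and untreated females C6 did not pass the test in dKO (-0.55, adjusted p = 0.13) and was higher with treatment in wild type (1.39 ± 0.28, adjusted p = 0.0022, and 0.072 without the arrays numbered 4). The genotype by treatment interaction was -1.94 ± 0.39 (adjusted p = 0.010), and it was not called without those arrays.

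C8 is built from the products of C8a, C8b and C8g, and these 3 genes did not move together. C8b was 5.26-fold lower in treated dKO females and 5.20-fold lower in untreated dKO females, while males did not differ beyond the spread. C8b read 3.24, 4.04, 2.54 and 3.51 in treated dKO males and 3.82, 3.03, 2.83 and 3.08 in treated wild-type males, which overlapped (0.15 ± 0.56, adjusted p = 0.89). C8b read 1.12, -2.40, 1.64 and 0.44 in treated dKO females, against 2.15, 2.65, 2.97 and 2.61 in treated wild-type females. It read -0.17, -0.23, 0.44 and 0.02 in untreated dKO females, against 2.07, 2.28, 2.93 and 2.30 in untreated wild-type females. In both female comparisons every dKO array lay below every wild-type array, by -2.39 ± 0.56 in treated females (adjusted p = 0.0037) and -2.38 ± 0.56 in untreated females (adjusted p = 0.0095).

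Much of the spread of C8b in treated dKO females came from array 2, and without it the difference was -1.53. Without the arrays numbered 4 neither female difference of C8b was called (adjusted p = 0.064 and 0.16). The male over female difference was 3.13 ± 0.56 in treated dKO mice (adjusted p = 0.00086, and 0.047 without the arrays numbered 4) and 0.59 in treated wild types (adjusted p = 0.61). The sex by genotype interaction of C8b was 2.54 ± 0.79 (adjusted p = 0.042) with all 24 arrays. It was not called in 9 of 17 alternative settings. Among these were the arrays numbered 4 left out, slide as a fixed block, median centring and no filter on dim probes.

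C8a went the other way in males: it was higher in treated dKO males than in wild-type males (1.0 ± 0.31, adjusted p = 0.022), with 5.79, 6.20, 5.93 and 5.94 against 5.36, 4.60, 4.92 and 4.96. Treated males were above treated females in C8a by 1.70 ± 0.31 in dKO (adjusted p = 0.0010) and by 1.11 ± 0.31 in wild type (adjusted p = 0.037). C9, whose product forms most of the pore, read 2.75, 3.17, 2.34 and 2.61 in treated dKO males, against 1.34, 1.46, 1.46 and 1.42 in treated wild-type males, a difference of 1.29 ± 0.38 (adjusted p = 0.015). None of these C8a and C9 differences was called without the arrays numbered 4, where adjusted p was 0.051 to 0.33. With slide as a fixed block the C8a genotype call in males and its sex call in wild type were lost (adjusted p = 0.0504 and 0.103). C8g fell in treated dKO females (-1.19 ± 0.24, adjusted p = 0.0012, and 0.047 without those arrays) and was -0.12 in males, not called. Hc, the gene of C5, was lower in treated dKO females (-1.01 ± 0.22, adjusted p = 0.0019) and in untreated dKO females (-1.15 ± 0.22, adjusted p = 0.0017). Hc read 6.14, 6.33, 5.99 and 6.13 in untreated dKO females, against 7.37, 7.07, 7.53 and 7.22 in untreated wild-type females. These groups did not overlap, and adjusted p was 0.056 in treated and 0.074 in untreated females without the arrays numbered 4.

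**Figure D3:**
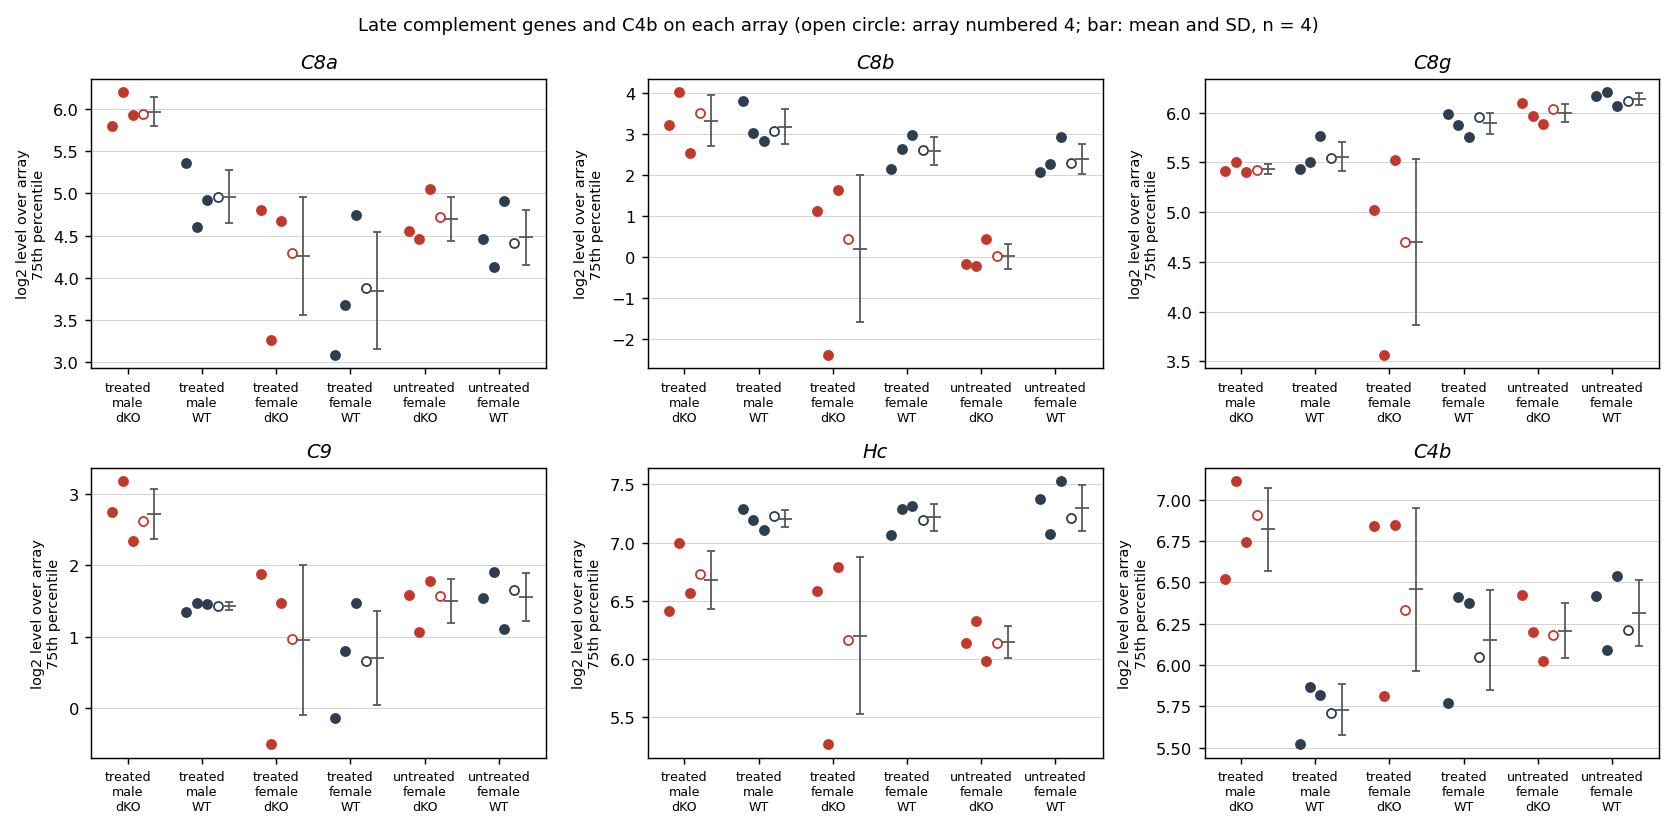
Levels of C8a, C8b, C8g, C9, Hc and C4b on each array (log2 over the array's 75th percentile), by group. Open circles are the arrays numbered 4, and bars are the mean and SD (n = 4). C8b is low on dKO arrays of females and not of males, and C8a, C9 and C4b are high on dKO arrays of males. C4b is also high on treated dKO females 1 and 3 (6.84 and 6.85).

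The promoter windows of C6 and C8b are shown because these genes carried the largest sex differences, C8b in treated dKO mice and C6 in treated wild types. The capitals in C8b mark the 2 copies of the forkhead word TGTTTGC, which start 32 and 15 bases before the start of the gene. The C6 window held no forkhead word.
C6, chr15:4726960-4727209, plus strand: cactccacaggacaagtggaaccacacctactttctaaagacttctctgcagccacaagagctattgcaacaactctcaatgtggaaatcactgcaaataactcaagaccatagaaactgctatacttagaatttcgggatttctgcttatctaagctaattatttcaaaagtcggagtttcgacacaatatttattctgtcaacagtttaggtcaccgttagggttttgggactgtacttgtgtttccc
C8b, chr4:104766067-104766316, plus strand: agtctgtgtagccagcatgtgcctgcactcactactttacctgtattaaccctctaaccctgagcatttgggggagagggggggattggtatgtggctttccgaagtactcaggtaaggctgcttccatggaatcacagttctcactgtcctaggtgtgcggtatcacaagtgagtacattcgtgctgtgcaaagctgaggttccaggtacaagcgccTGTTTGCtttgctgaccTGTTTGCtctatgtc

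Among the complement regulators, C4bp, the gene of the C4b-binding protein that dismantles the classical C3 convertase, was lower in dKO livers in all 3 comparisons. C4bp read 6.45, 6.82, 6.74 and 6.60 in treated dKO males, against 7.68, 7.69, 7.40 and 7.56 in treated wild-type males. It read 6.00, 5.65, 6.55 and 5.95 in treated dKO females, against 6.95, 7.14, 7.52 and 7.21 in treated wild-type females. In untreated females it read 6.73, 6.65, 6.70 and 6.67 in dKO and 7.27, 7.30, 7.33 and 7.22 in wild type. No dKO group overlapped its wild type. The C4bp differences were -0.93 ± 0.14 in treated males (adjusted p = 8.3e-05), -1.17 ± 0.14 in treated females (adjusted p = 1.1e-05) and -0.59 ± 0.14 in untreated females (adjusted p = 0.012). The adjusted p was 0.011, 0.0048 and 0.19 without the arrays numbered 4. A second C4bp probe, well above background on only 4 of 24 arrays, read -1.26 in treated males (adjusted p over probes = 0.010), and was not called in treated females (-0.61) or untreated females (0.11). Cfi, the gene of factor I, fell in treated dKO females (-0.51, adjusted p = 0.039), a call that was lost without treated dKO female 2. Serping1, the C1 inhibitor, and Vtn, vitronectin, were called in none of the 9 comparisons.

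Among the contact factors, F11 was lower in dKO livers of every group. F11 encodes factor XI, which activates factor IX. It was 5.80-fold lower in treated dKO males, 11.2-fold lower in treated dKO females and 6.34-fold lower in untreated dKO females. F11 read 1.22, 1.74, 0.99 and 1.40 in treated dKO males, against 3.74, 4.19, 3.72 and 3.84 in treated wild-type males. It read 0.54, -0.35, 1.92 and 0.76 in treated dKO females, against 3.78, 4.43, 4.44 and 4.15 in treated wild-type females. In untreated females it read 2.03, 2.34, 2.02 and 2.03 in dKO, against 4.71, 4.74, 4.90 and 4.74 in wild type. All 12 dKO arrays lay below all 12 wild-type arrays.

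The F11 differences were -2.54 ± 0.30 in treated males (adjusted p = 3.9e-06), -3.48 ± 0.30 in treated females (adjusted p = 1.7e-07) and -2.67 ± 0.30 in untreated females (adjusted p = 7.0e-06). They were called without the arrays numbered 4 (adjusted p = 0.0016, 0.00043 and 0.0046). The change in treated females was -3.12 without array 2 of the treated dKO females. Between treated and untreated females F11 differed by -1.39 in dKO (adjusted p = 0.0015) and by -0.57 in wild type (not called). The difference between these effects was not called (genotype by treatment interaction -0.82 ± 0.42, adjusted p = 0.28). The F11 difference was thus also seen without treatment. Klkb1, which lies next to F11 on chromosome 8 and encodes plasma prekallikrein, fell in treated dKO females (-1.06 ± 0.36, adjusted p = 0.031) and was called in neither other genotype comparison. Klkb1 read 2.58, 0.26, 3.11 and 2.18 in treated dKO females, against 3.14, 3.16, 2.92 and 3.13 in treated wild-type females, and the groups overlapped. F12, factor XII, and Kng1, the kininogen that carries bradykinin, were called in no genotype comparison.

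The window before F11 is shown because F11 fell with genotype in every group. The capitals mark GTAAACA, which is TGTTTAC read from the other strand and starts 25 bases before the start of the gene.
F11, chr8:45262032-45262281, minus strand: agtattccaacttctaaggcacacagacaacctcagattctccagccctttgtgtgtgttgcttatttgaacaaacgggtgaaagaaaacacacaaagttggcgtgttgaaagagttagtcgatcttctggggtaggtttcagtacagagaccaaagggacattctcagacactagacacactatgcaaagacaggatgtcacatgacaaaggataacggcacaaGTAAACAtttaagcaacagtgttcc

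**Figure D4:**
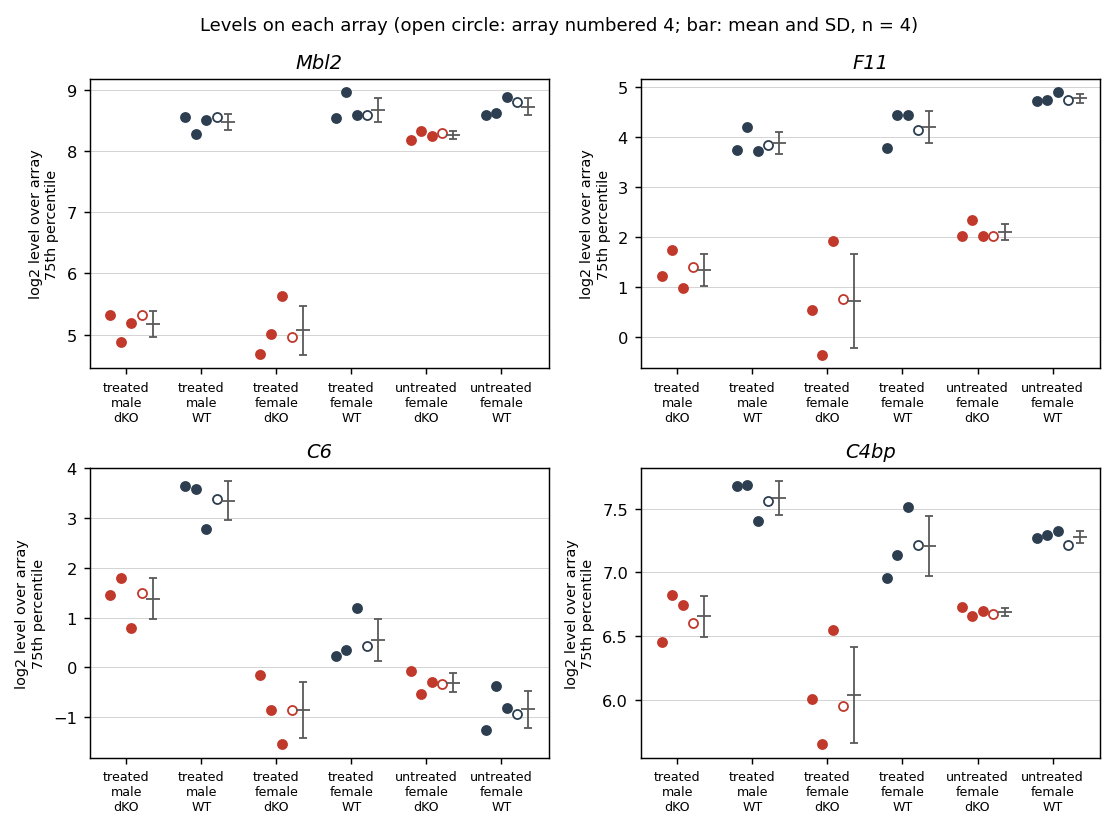
Levels of Mbl2, F11, C6 and C4bp on each array (log2 over the array's 75th percentile), by group. Open circles are the arrays numbered 4, and bars are the mean and SD (n = 4). Mbl2 is low on treated dKO arrays, F11 on all dKO arrays, and C6 is highest in treated wild-type males.

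The vitamin K-dependent proteases were called between genotypes in treated females and in neither other group. F2, F7, F9 and F10, the genes of prothrombin and factors VII, IX and X, were lower in treated dKO females by 0.37 to 0.87 on the log2 scale. All 4 calls were lost in a fit on the groups compared alone, and without treated dKO females 2 and 4. The F9 call was also lost with quantile normalization or no filter on dim probes. F7 read 4.55, 2.89, 4.95 and 4.11 in treated dKO females, against 5.07, 5.20, 4.73 and 4.98 in treated wild-type females. In treated males none of the 4 was called and the differences of these genes and F5 were between -0.10 and 0.27. For F2 and F10 the groups did not overlap. F10 averaged 6.91 ± 0.73 in treated dKO females and 7.74 ± 0.09 in treated wild-type females (SD, n = 4 each, adjusted p = 0.0092). F5, the gene of the cofactor factor V, was not called between genotypes. Between treated and untreated females F5 differed by -1.01 in dKO (adjusted p = 0.0029) and by -0.71 in wild type (adjusted p = 0.046). The call in wild type was lost with slide as a fixed block (adjusted p = 0.12), quantile normalization (0.11), no filter on dim probes (0.077) or most of the single arrays left out, and both were lost without the arrays numbered 4. F5 read 2.79, 1.16, 2.87 and 2.19 in treated dKO females, against 3.13, 3.54, 3.10 and 3.29 in untreated dKO females. It read 3.03, 2.85, 2.68 and 2.85 in treated wild-type females, against 3.74, 3.51, 3.50 and 3.52 in untreated wild-type females. Neither treated group overlapped its untreated group.

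Of the fibrinogen genes, Fga and Fgb, for the alpha and beta chains, were called in no comparison, and Fgg, for the gamma chain, was higher in treated dKO males (0.50 ± 0.16, adjusted p = 0.027). That call was lost with slide as a fixed block (adjusted p = 0.071), with median centring, with position as a covariate and without the arrays numbered 4. Fgg read 8.52, 8.89, 8.82 and 8.64 in treated dKO males, against 8.41, 8.05, 8.15 and 8.27 in treated wild-type males. The groups did not overlap. F13b, the carrier subunit of factor XIII, fell in treated dKO females (-0.88, adjusted p = 0.013). Of the anticoagulants, Proc (protein C), Serpinc1 (antithrombin) and Serpind1 (heparin cofactor II) fell in treated dKO females by -0.83, -0.58 and -1.0 (adjusted p = 0.010, 0.011 and 0.017). These genes were lowest on array 2 of that group. Proc read 5.42 there, against 6.89, 7.12 and 6.48 on the others, and Serpind1 read 4.87, against 6.93, 7.17 and 6.37. These calls and that of F13b were lost in a fit on the groups compared alone. They were also lost without treated dKO females 2 and 4. Pros1, protein S, was called in no comparison. In fibrinolysis, Plg, the plasminogen gene, and Serpinf2, for the plasmin inhibitor alpha 2-antiplasmin, fell in treated dKO females by -1.06 and -0.84 (adjusted p = 0.028 and 0.031). Both calls were lost without treated dKO female 2, where Plg read 4.04, against 6.63, 6.54 and 5.74 on the other 3 arrays of its group. Cpb2, whose product protects fibrin from plasmin, was not called between genotypes (0.03 in treated females) and was highest on that same array (7.13). With the arrays numbered 4 left out, F11 was the only clotting or fibrinolysis member called between genotypes in any group.

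By treatment, 15 members were lower and 0 higher in treated than in untreated dKO females, against 37.8% of genes called, 21.5% as lower and 16.3% as higher. The median was -0.48, against -0.07 for all genes. Fitted on the groups compared alone, 11 of the 15 calls were lost. Without treated dKO female 2, 9 were lower and 2 higher (C8b and Pros1), and without the arrays numbered 4, 3 were lower (Mbl2, C8g and F11) and 0 higher. The hepatocyte markers were lower with treatment in dKO females too, 5 of 8 with a median of -1.48. In wild-type females 2 members were higher with treatment (C2 and C6) and 1 was lower (F5, a call lost with slide as a fixed block), against 17.2% of all genes called, 8.47% as higher and 8.72% as lower, and 0 were called without the arrays numbered 4. The comparisons of treated dKO females by genotype, treatment and sex all use the same 4 arrays, so their counts are not independent.

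By sex, 12 members were higher in males and 1 was lower (Cpb2) in treated dKO mice, against 20.5% of genes called, 12.4% as higher and 8.05% as lower. The complement members made up 8 of those 12, and 5 of the 8 were late components: C6, C8a, C8b, C8g and C9. Fitted on the groups compared alone, 11 of the 13 calls by sex in dKO were lost. Without treated dKO female 2 the count was 6 higher and 1 lower, with slide as a fixed block 6 were called in all, and without the arrays numbered 4 it was 2 higher, C6 and C8b. In treated wild types 2 members were higher in males (C6 and C8a) and 0 lower, against 6.11% of all genes called, 3.27% as higher and 2.85% as lower. The sex by genotype interaction was called for C8b and C8g alone among the members, against 12.6% of all genes called, 7.32% as higher and 5.25% as lower, and for none without the arrays numbered 4 or with slide as a fixed block. The genotype by treatment interaction was called for Mbl2 and C6, against 5.08% of all genes called, 2.47% as higher and 2.61% as lower, and for Mbl2 alone without those arrays.

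**Figure D5:**
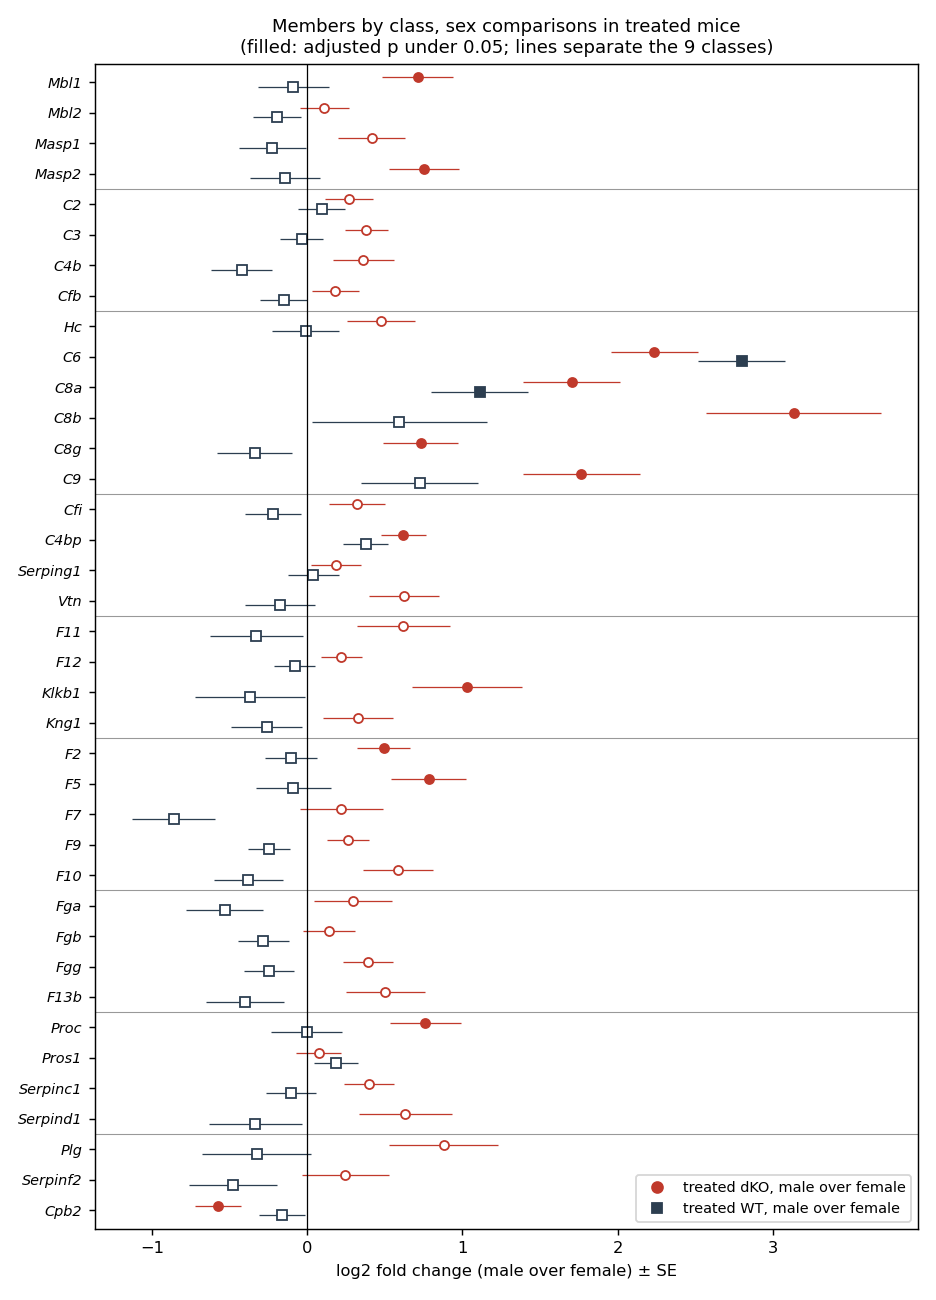
Log2 fold change (male over female) of each of the 38 members with its standard error in treated dKO and treated wild-type mice (n = 4 per group), ordered by role. Filled marks have an adjusted p under 0.05: 13 members in dKO and 2 in wild type (C6 and C8a).

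Of 30 other complement genes, 4 were higher and 3 lower in treated dKO males, 5 higher and 10 lower in treated dKO females, and 2 higher and 2 lower in untreated dKO females, where 25.3%, 29.7% and 9.76% of all genes were called. C7, the late component that anchors the growing pore to the membrane, was not well above background on any wild-type array. It was at least 2.88-fold higher in treated dKO males (adjusted p = 4.4e-06, and 0.00058 without the arrays numbered 4) and at least 1.33-fold higher in treated dKO females (adjusted p = 0.0014, and 0.022). Colec10, a collectin that also recognises sugars for the lectin pathway, was lower in treated dKO females, like Mbl2. It read 2.23, 1.84, 2.45 and 2.08 in treated dKO females, against 3.46, 3.56, 3.07 and 3.49 in treated wild-type females, a fall of -1.24 ± 0.15 (adjusted p = 1.1e-05). In untreated females Colec10 was higher in dKO (0.66 ± 0.15, adjusted p = 0.0089), with 4.72, 4.64, 4.43 and 4.54, against 3.95, 3.99, 3.85 and 3.89 in wild type. It differed by -2.43 ± 0.15 between treated and untreated dKO females (adjusted p = 5.0e-09). C1s1, a protease of the classical pathway, was lower in untreated dKO females (-0.75 ± 0.15, adjusted p = 0.0028, and 0.12 without the arrays numbered 4). Itgax, the complement receptor chain CD11c of myeloid cells, was higher in treated dKO females (2.03 ± 0.43, adjusted p = 0.0017) and males (1.41 ± 0.43, adjusted p = 0.020).

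Of 21 other clotting genes, 2 were higher and 4 lower in treated dKO males, 3 higher and 7 lower in treated dKO females, and 4 higher and 0 lower in untreated dKO females, against the same 25.3%, 29.7% and 9.76% of all genes. F2r, a thrombin receptor, was higher in all 3 groups of dKO livers, by 0.60 ± 0.19 in treated males (adjusted p = 0.022), 1.32 ± 0.19 in treated females (adjusted p = 4.6e-05) and 0.88 ± 0.19 in untreated females (adjusted p = 0.0045). Gas6, a vitamin K-dependent ligand, was also higher in all 3, by 0.61 ± 0.20, 0.92 ± 0.20 and 1.06 ± 0.20 (adjusted p = 0.029, 0.0020 and 0.0015). F8, whose product is the cofactor of factor IX and comes mainly from endothelial cells, fell in treated dKO females (-0.79 ± 0.17, adjusted p = 0.0017). Adamts13, the protease that trims von Willebrand factor and a product of stellate cells, was not well above background on any treated dKO array, and was at least 3.95-fold lower in treated dKO females and at least 1.77-fold lower in treated dKO males. It was well above background on 3 of 4 wild-type arrays in each sex.

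Of 10 other fibrinolysis genes, 1 was higher and 1 lower in treated dKO males, 5 higher and 1 lower in treated dKO females, and 1 higher and 0 lower in untreated dKO females, against 25.3%, 29.7% and 9.76% of all genes. Anxa2, a receptor for plasminogen and its activator on cell surfaces, was higher in treated dKO females (2.11 ± 0.42, adjusted p = 0.00095), as was Plat, the tissue plasminogen activator (1.61 ± 0.36, adjusted p = 0.0029). Serpine2, an inhibitor of thrombin and plasminogen activators, was not well above background on any treated wild-type array and was at least 2.96-fold higher in treated dKO males and at least 1.33-fold higher in treated dKO females. S100a10, the partner of Anxa2, was lower in treated dKO males (-1.02 ± 0.21, adjusted p = 0.0012). The bile duct and stellate cell markers moved in the same dKO groups as these genes, and their part in the differences was not tested.

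The authors' deposited table of signed fold changes gave the same direction as the model here for 36 of 38 members in the genotype comparison of treated males, 32 of 38 in treated females and 25 of 38 in untreated females. It listed Mbl2 at -11.1 in treated females and -9.52 in treated males, F11 at -11.2, -5.75 and -5.81 in treated females, treated males and untreated females, and C8b at -5.32 in treated females and 1.18 in treated males. These are values of the authors' deposited table, for which no test or normalization was stated in the labels.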

How the data were processed

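RNA of 24 liver samples was amplified (WT-Ovation Pico), labelled with Cy3 (BioPrime) and hybridised to Agilent 4x44K arrays, per the labels' protocols. The deposited files hold processed spot intensity from Agilent Feature Extraction (10.5.1.1 per the file headers, 9.53 per the submitters' processing notes). The authors' deposited table of signed fold changes (a score) was used for comparison only, and its other columns were left aside.

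Of 43379 non-control spots, 72 to 127 outlier spots per array were left out, and no spot was saturated. Repeated probes were averaged (41174). Signals were divided by the array's 75th percentile (435 to 960) and taken as log2. A probe entered the fit if 4 or more of the 24 arrays had it well above background (28048 did), and each gene was read from its brightest probe. On each array 50.4% to 68.4% of spots were well above background, and the number of arrays limits the precision. Gene names came from the files, and for 26690 probes from a RefSeq accession.

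The model, limma 3.58.1 in R 4.3.3 (tables read with data.table, version 1.17.8), had 6 group means over 24 arrays, with Benjamini-Hochberg adjustment in each of 9 comparisons at 0.05. The fit was tried on simulated data for the genotype comparison in treated females. It called 19 of 67 genes changed 1.5-fold, 43 of 67 changed 2-fold and 63 of 66 changed 4-fold, with 6 false calls among unchanged genes. The simulated arrays were independent, with the same spread of a gene in every group. The trial thus cannot speak for the low array 2 of treated dKO females or the arrays numbered 4. Far fewer genes were changed in it than the 29.7% called in the data. The adjusted p is stricter in that setting, so these shares do not carry over to the data. Replicate numbers did not pair samples (correlations of deviations between same-numbered arrays of -0.34 to 0.34), so no block was used. Alternatives were other backgrounds, scalings, filters, probe rules, blocks for slide and position, and arrays left out. On the slides, treated wild-type arrays were at positions 1 or 2 and treated dKO arrays at positions 3 or 4. Promoters were searched in Python 3.11.15 with pandas 2.3.3 and figures drawn with matplotlib 3.10.9.

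The members and lists were chosen with earlier results of these data known. All members are described. Of the lists of other complement, clotting and fibrinolysis genes, up to 3 of the highest and up to 3 of the lowest called log2 fold changes could be named, and fewer were.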

Additional observations from a re-analysis of the deposited data

Results flagged for a closer look

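In groups of 4 samples, 13 of 228 sets of member values held 1 array whose gap to the nearest of the others exceeded Dixon's critical share of the range. Chance alone flags about 1 group in 20. Among treated samples, Mbl2 was high in wild-type female 2 (8.97, others 8.55 to 8.59), Plg was high in dKO male 2 (6.99, others 6.46 to 6.53), and Serpinc1 was low in wild-type male 2 (8.08, others 8.24 to 8.27). Wild-type female 3 was low in Klkb1 (2.92, others 3.13 to 3.16) and in F13b (3.99, others 4.2 to 4.21). Among untreated dKO females, F11 was high in sample 2 (2.34, others 2.02 to 2.03), Klkb1 in sample 1 (3.42, others 3.27 to 3.30) and Pros1 in sample 3 (2.36, others 2.03 to 2.07). Among untreated wild-type females, F11 (4.90, others 4.71 to 4.74) and Cpb2 (6.88, others 6.44 to 6.50) were high in sample 3. F5 was high in sample 1 (3.74, others 3.50 to 3.52), F9 was low in sample 1 (2.94, others 3.04 to 3.07) and Serpinc1 was low in sample 2 (8.30, others 8.54 to 8.55).

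By the test of the difference itself, 4 effects of genotype differed between groups. The difference of the genotype effect between males and females was 2.54 for C8b (adjusted p = 0.042) and 1.07 for C8g (adjusted p = 0.045). Both were lost without the arrays numbered 4 and with slide as a fixed block. Of 17 alternative settings, 9 lost the C8b call and 11 the C8g call. The genotype effect differed between treated and untreated females by -1.94 for C6 (adjusted p = 0.010), lost without the arrays numbered 4. For Mbl2 it differed by -3.15 (adjusted p = 6.1e-08), called without them.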

How the results depend on the processing

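Of 73 member results called, 46 were called in all 24 fits that leave out 1 array, 20 without the arrays numbered 4, 24 without those and treated dKO female 2, and 38 without treated dKO females 2 and 4. The sets of arrays left out together and the scaling to secreted hepatocyte genes were chosen after seeing the data. With all arrays, genotype gave 10 members called in treated males, 22 among treated and 4 among untreated females. Treatment gave 15 in dKO and 3 in wild type, sex gave 13 in dKO and 2 in wild type, and each interaction gave 2. Leaving out 1 array gave ranges of 8 to 16, 15 to 27, 4 to 7, 11 to 21, 1 to 4, 6 to 26, 1 to 5, 0 to 23 (sex by genotype) and 2 to 8 (genotype by treatment), in that order. Without treated dKO female 2 there were 16, 19 and 7 by genotype, 7 and 5 by sex in dKO and wild type, and 4 for sex by genotype. Leaving out treated dKO female 3 gave 26 and 4 by sex in dKO and wild type, 23 for sex by genotype and 8 for genotype by treatment. Leaving out treated dKO female 1 gave 11 for sex by genotype. Sex in dKO gave 6 without treated dKO female 4 or treated dKO male 2, and 7 without treated dKO male 4. Treatment in wild type gave 1 without untreated wild-type female 1, 3 or 4. Sex in wild type gave 1 without treated wild-type female 1, 2 or 4 or wild-type male 1, 3 or 4. Sex by genotype gave 0 or 1 without most single arrays.

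Without the arrays numbered 4, the counts in the same order were 5, 7, 1, 3, 0, 2, 1, 0 and 1. Without those and treated dKO female 2 there were 5 by genotype in treated females, 2 by treatment in dKO, 1 by sex in dKO, 0 for sex by genotype and 1 for genotype by treatment. Without treated dKO females 2 and 4 there were 17, 10 and 7 by genotype, 5 by treatment in wild type, 4 and 9 by sex in dKO and wild type, and 0 for sex by genotype. With position as a covariate there were 1 and 2 by genotype in treated males and females, 4 and 1 by treatment in dKO and wild type, 6 by sex in dKO, and 1 for each interaction. From the groups compared alone there were 5 by genotype in treated and 9 in untreated females, 4 and 5 by treatment in dKO and wild type, 2 and 4 by sex in dKO and wild type, and 0 for sex by genotype. Scaling to the secreted hepatocyte genes gave 13 by genotype in treated females, 5 by sex in dKO, 0 for sex by genotype and 1 for genotype by treatment. Sex in dKO gave 8 with median centring, 8 with normexp and 6 with slide as a fixed block. Sex by genotype gave 0 with median centring, no filter, the replicate block or the slide block, and 1 with normexp. With no filter there was 1 by treatment and 1 by sex in wild type. The replicate block moved no other count by over 1.5 times. No count moved by over 1.5 times with quantile normalization, the stricter filter, the mean of a gene's probes, the trend and robust options, slide as a random block or outlier spots kept.

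Signs of member results called with all arrays or in the changed setting turned in added settings only. Without treated dKO females 2 and 4, Serpinf2 read 0.52 by treatment in dKO and -0.44 by sex in dKO. Scaled to the secreted hepatocyte genes, the genotype difference in treated females read 0.13 for Cfi, 0.61 for Serping1, 0.27 for F9, 0.61 for Fgb, 0.49 for Fgg and 0.051 for Serpinc1. In that scaling F12 read 0.0057 by treatment and F2 -0.084 by sex in dKO. The causes were not tested.

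Within slides that held both groups, the members' median was 0.01, -0.17 and 0.27 in treated males by genotype, -1.54 and -0.69 in treated females, and -0.20 and -0.33 in untreated females. With 4 arrays a group, the number of arrays limits every value.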
